A study of Mus musculus with 2 samples.

Results

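The genes described here encode the enzymes, chaperones and export factors that turn newly made procollagen chains into secreted, crosslinked collagen. They are 32 genes listed by name for that function; no measured value enters the rule, but the list was made with earlier results of these data known. All 32 were found among the 43346 gene rows of the tables. Gene identifiers were named by their GENCODE mouse symbols on GRCm38.

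Procollagen chains enter the endoplasmic reticulum (ER), where prolyl and lysyl hydroxylases modify them, galactose is added to some hydroxylysines, and chaperones hold the folding triple helix. Large COPII carriers take the trimers to the Golgi, proteinases cut off the terminal propeptides, and lysyl oxidases form the aldehydes from which crosslinks grow. In the developing face this machinery serves the mesenchyme of the jaws and palate, the first bone and the cartilage, and inherited defects in several of its human genes cause brittle bone disease or craniofacial malformation.

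The RNA came from the embryonic facial prominences of healthy mouse embryos at embryonic day 13.5, the swellings from which the jaws, nose and palate arise. Both libraries form 1 group: strain B6NCrl, no treatment or altered allele named in the labels, males and females pooled. They are biological replicates 1 and 2, with a biosample each and 1 donor identifier in common. What part of the spread between them is technical cannot be told. There is no second condition, hence no test and no p-value, and a mean ± SD below is over the 2 libraries (n = 2).

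Replicate 1 held 28542452 expected counts on gene rows and replicate 2 held 22719352. ERCC spike-ins took 13.4% and 9.68% of the TPM total (length-corrected abundance scaled to 1000000 per library). All 6 facial mesenchyme markers passed 1 TPM in each library, with summed levels of 1025 TPM in each. The libraries differed in other tissue markers. In replicates 1 and 2 the 5 liver genes summed to 3.52 and 203 TPM, and the 5 heart genes to 2.64 and 25.2 TPM. The 4 Hox genes listed for trunk position summed to 6.68 and 0.18 TPM. Nearly all of that was Hoxa5 (3.64 and 0.14 TPM) and Hoxb6 (3 and 0 TPM). Hoxc8 (0.04 and 0 TPM) and Hoxa9 (0 and 0.04 TPM) were near 0 in both libraries. The 5 osteoblast genes summed to 440 and 319 TPM, with the mature osteoblast gene Bglap at 0.69 and 0.68 TPM, and the 5 chondrocyte genes to 220.1 and 309 TPM. In bulk tissue, fewer cells of a type and less RNA per cell cannot be told apart.

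Nearly the whole procollagen production line was detected. Of the 32 genes, 31 passed the detection threshold of 1 TPM in each library, against 60.9% of the 21474 protein-coding gene rows. The median of their mean levels was 44.9 ± 4.04 TPM, where the SD is that of the medians in each library (42.4 and 48.1 TPM in replicates 1 and 2). The median over all protein-coding gene rows was 4.68 TPM, and over those detected 18.9 TPM. Above the median protein-coding gene were 27 of the 32, and 7 were in the top 10%. The genes summed to 3204 TPM in replicate 1 and 3492 TPM in replicate 2, and Serpinh1, P4hb and Ppib together made up 63.9% and 63.8% of that. By mean TPM, 4 genes were at 100 or more, 21 between 10 and 100, 6 between 1 and 10, and 1, Tll2, below 1. Ordered by level, 18 of the 31 neighbouring genes had library values that overlapped, so the order in the crowded middle range is not resolved.

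**Figure D1:**
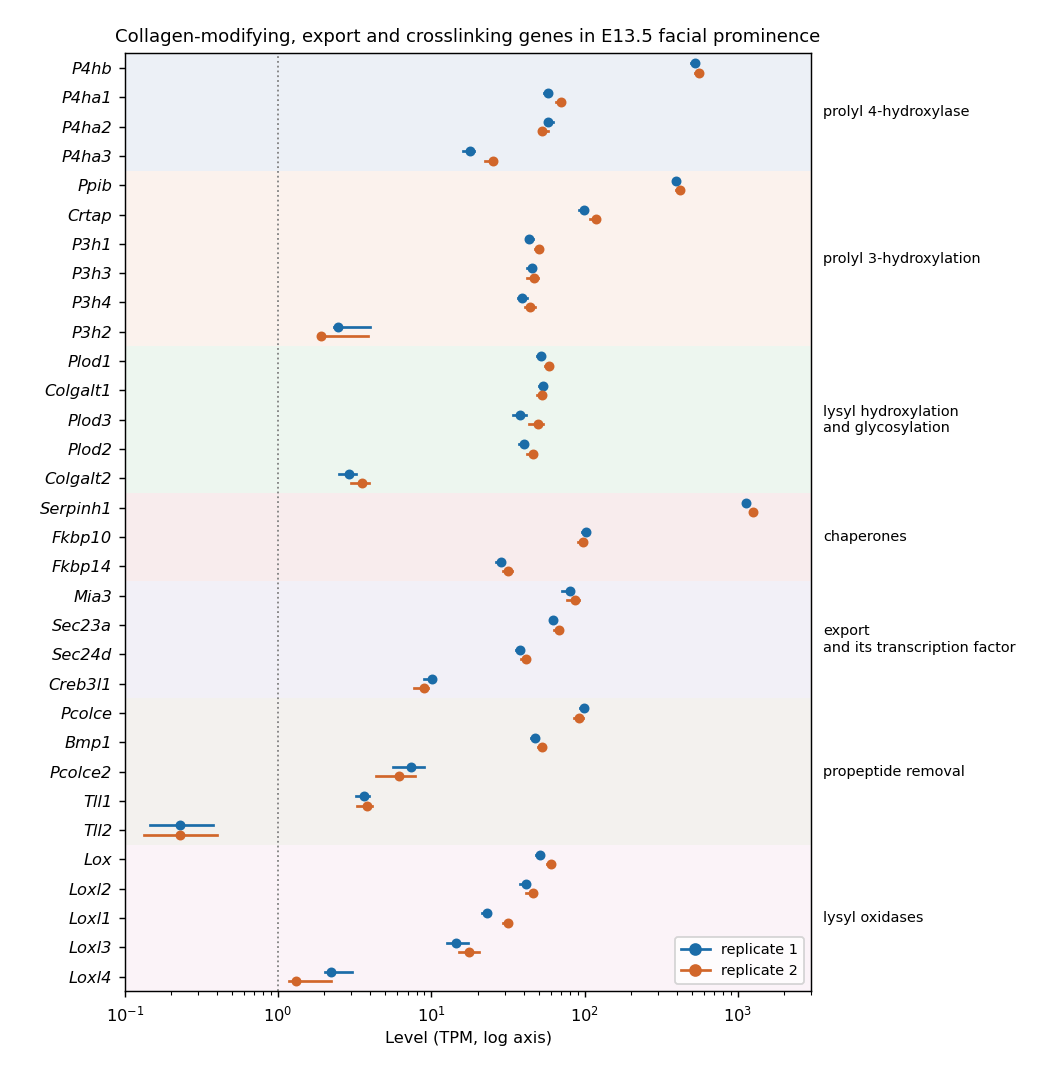
Level of each gene in TPM on a log axis, replicate 1 in blue and replicate 2 in orange, grouped by role, with the deposited credibility interval as a line. The intervals belong to the posterior mean level, so a point can lie beside its own line, as for Serpinh1; only Tll2 lies left of the dotted line at 1 TPM.

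Prolyl 4-hydroxylase, which makes the 4-hydroxyproline that keeps the triple helix stable at body temperature, is a tetramer of catalytic alpha subunits (P4ha1, P4ha2 or P4ha3) and the protein disulfide isomerase P4hb. P4hb, which also works on other ER proteins, was the second highest of the 32 at 520.8 TPM in replicate 1 and 557.8 TPM in replicate 2. P4ha1 was at 57.2 and 70.1 TPM, P4ha2 at 57.4 and 52.4 TPM and P4ha3 at 17.7 and 25.1 TPM. The beta subunit thus stood at 3.94 and 3.78 times the summed alpha subunits. P4ha1 and P4ha2 were level in replicate 1 and 1.34-fold apart in replicate 2, so their order was not resolved, whereas both exceeded P4ha3 in both libraries by credibility intervals that did not overlap. Of the alpha subunit total, P4ha1 gave 45.4% ± 3.01, P4ha2 39.4% ± 5.55 and P4ha3 15.2% ± 2.54.

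Both main alpha subunit genes carry a pair of alternative coding exons, of which a transcript model holds 1 or the other; in the human genes these pairs are known as mutually exclusive exons. The exons are shown because their use is the main transcript choice of this enzyme in the tissue, with the exon in capitals and 12 bases of the neighbouring exons in lower case (transcript strand, GENCODE M21 models, GRCm38).
P4ha1 exon A, chr10:59355350-59355420: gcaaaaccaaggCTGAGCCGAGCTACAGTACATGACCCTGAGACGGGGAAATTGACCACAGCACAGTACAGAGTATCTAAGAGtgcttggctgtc
P4ha1 exon B, chr10:59354340-59354410: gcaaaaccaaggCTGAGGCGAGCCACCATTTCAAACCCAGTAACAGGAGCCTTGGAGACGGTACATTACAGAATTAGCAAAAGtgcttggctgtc
P4ha2 exon A, chr11:54126238-54126297: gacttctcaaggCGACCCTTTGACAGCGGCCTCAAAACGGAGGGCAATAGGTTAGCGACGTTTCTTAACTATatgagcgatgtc
P4ha2 exon B, chr11:54126346-54126411: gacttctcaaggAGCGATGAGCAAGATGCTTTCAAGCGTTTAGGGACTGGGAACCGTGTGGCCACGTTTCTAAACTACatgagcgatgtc

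The exons of P4ha1 are 71 bases long each and identical at 42 of the 71 positions. P4ha1 transcripts with exon A summed to 49.6 TPM in replicate 1 and 60.1 TPM in replicate 2, and those with exon B to 7.65 and 10.0 TPM. Exon A was therefore in 86.2% ± 0.643 of the P4ha1 TPM and exon B in 13.8% ± 0.643, and the libraries differed by less than 1 percentage point. The leading model P4ha1-203 alone carried 78.3% ± 0.743.

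In P4ha2 exon A has 60 bases (20 codons) and exon B 66 bases (22 codons), so the exon choice also changes the length of the subunit. They were identical at 37 of 59 compared positions. Among the P4ha2 models with 1 of these exons, exon A was in 30.1 and 28.3 TPM and exon B in 17.0 and 13.8 TPM, or 65.6% ± 2.29 and 34.4% ± 2.29 of the pair. The smaller exon led in both libraries, with a larger minor share than in P4ha1. By model, P4ha2-215 (exon A) held 35.3% ± 5.82 of the gene's TPM and P4ha2-201 (exon B) 28.0% ± 2.29. Counted in reads rather than TPM, P4ha2-201 led in replicate 1 with 766 expected counts against 755 for P4ha2-215, and P4ha2-215 led in replicate 2 with 664 against 475.

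P4ha3, the third alpha subunit, had less of its signal in protein-coding models than most of the genes. Non-coding models held 44.6% ± 3.96 of its TPM, against a median of 6.32% over the genes described here with several models and 9.86% over 7765 protein-coding genes with several models. The coding model P4ha3-201 held 51.2% in replicate 1 and 40.4% in replicate 2, and the retained-intron model P4ha3-204 held 40.3% and 42.6%. In expected counts P4ha3-201 led in both libraries, with 435 and 370, against 188 and 214 for P4ha3-204. Restricted to coding models, P4ha3 was at 10.3 and 13.2 TPM.

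Prolyl 3-hydroxylation is a rarer modification, made on few prolines of a fibrillar chain by a complex of P3h1, the non-enzymatic partner Crtap and the prolyl isomerase cyclophilin B (Ppib). Ppib, which also speeds folding by turning peptide bonds before proline, was at 395.8 TPM in replicate 1 and 419 TPM in replicate 2. Crtap was at 99.0 and 119 TPM and P3h1 at 43.6 and 49.96 TPM. All 3 parts of the complex were thus abundant, with Crtap 2.27 and 2.39 times P3h1 and Ppib 9.08 and 8.39 times P3h1. P3h3 and its non-enzymatic relative P3h4, which in mice form a separate complex with lysyl hydroxylase 1, were at 45.6 and 46.9 TPM and at 39.2 and 43.99 TPM. P3h2, known for its action on the collagen IV of basement membranes, was at 2.47 and 1.91 TPM, from 166 and 98 counts.

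The family thus had 3 members at near-equal levels and 1 far below them. P3h1, P3h3 and P3h4 gave 34.2% ± 1.18, 33.8% ± 1.40 and 30.4% ± 0.604 of the summed TPM, and none of the pairs among them was apart in both libraries. P3h2 gave 1.61% ± 0.389, and each of the others was at least 15.9-fold above it in both libraries. Of the P3h3 TPM, 36.1% ± 3.02 was in 6 non-coding models, and the coding model P3h3-201 (63.9% ± 3.02) was at 30.1 and 28.9 TPM, below P3h1 and P3h4 in both libraries. In expected counts P3h3-201 held 87.5% of the gene in replicate 1 and 83.3% in replicate 2, so the non-coding share of TPM rests on few reads. P3h4 and Fkbp10 lie head to head on chromosome 11, 860 bases apart on opposite strands, the only pair among the 32 within 10000 bases of each other.

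Lysyl hydroxylases make the hydroxylysines that anchor sugars and the most stable crosslinks. Plod1 was at 51.5 TPM in replicate 1 and 58.7 TPM in replicate 2, Plod2 at 40.2 and 45.7 TPM and Plod3 at 37.9 and 49.4 TPM. Plod1, the hydroxylase of the helical region, held 38.9% ± 1.11 of the family and was above the other 2 in both libraries, while Plod2 (30.4% ± 0.909) and Plod3 (30.7% ± 2.02) were not apart. The galactosyltransferase Colgalt1, which adds the first sugar, was at 53.4 and 52.8 TPM, and its paralog Colgalt2 at 2.89 and 3.52 TPM. Colgalt1 made up 94.3% ± 0.786 of that pair. It was not apart from Plod3, whose product also acts as a glycosyltransferase, in both libraries.

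Plod2 encodes the hydroxylase of the telopeptides, the short non-helical ends from which crosslinks form, and its long splice form, which holds 1 extra exon, is the form linked to that activity. The extra exon is shown because it separates the forms, again in capitals with 12 flanking bases in lower case; it has 63 bases, or 21 codons, and lies at chr9:92601985-92602047 on the plus strand of GRCm38.
Plod2 extra exon: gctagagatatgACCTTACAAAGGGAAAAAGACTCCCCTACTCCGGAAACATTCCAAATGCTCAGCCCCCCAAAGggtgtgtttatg

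The long form was the main form in both libraries. Plod2-203, with the exon, was at 24.9 TPM in replicate 1 and 25.9 TPM in replicate 2, and Plod2-201, without it, at 8.78 and 13.0 TPM. The exon was thus in 73.9% and 66.6% of the coding Plod2 TPM, a mean of 70.3% ± 5.17. Of the whole gene, these models held 59.3% ± 3.75 and 25.1% ± 4.62.

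Plod3 shows how TPM and counts can part. Its TPM was 1.30 times as high in replicate 2 as in replicate 1, while its TMM-scaled count ratio was 0.986. The full-length model Plod3-201, with 57.5% ± 12.5 of the gene's TPM, was at 24.0 TPM in replicate 2 and 25.1 TPM in replicate 1. An incomplete coding model Plod3-202, 600 bases long, held 22.2% ± 7.01 of the TPM but 3.57% of the counts in replicate 1 and 6.93% in replicate 2. The Plod3 level is accordingly less certain than those of Plod1 and Plod2.

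The chaperones held the largest share. Serpinh1 (Hsp47; ENSMUSG00000070436.7, GRCm38 chromosome 7, 99345376 to 99353239), the chaperone that binds the triple helix of procollagen and is dedicated to collagen, was the highest of the 32 at 1129 TPM in replicate 1 and 1250 TPM in replicate 2, from 51834 and 43733 counts. It lay at percentile 99.7 of protein-coding genes, and Serpinh1-201 carried 96.3% ± 0.0428 of it. Its level was beside those of the most abundant collagen chains, Col3a1 at 1137 and 1089 TPM and Col1a1 at 946 and 815 TPM. Fkbp10, a prolyl isomerase needed for telopeptide hydroxylation and mutated in human brittle bone disease, was at 102 and 97.7 TPM. Fkbp14, a smaller isomerase of the same ER family, was at 28.4 and 31.8 TPM, so Fkbp10 exceeded it 3.59-fold and 3.07-fold.

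**Figure D2:**
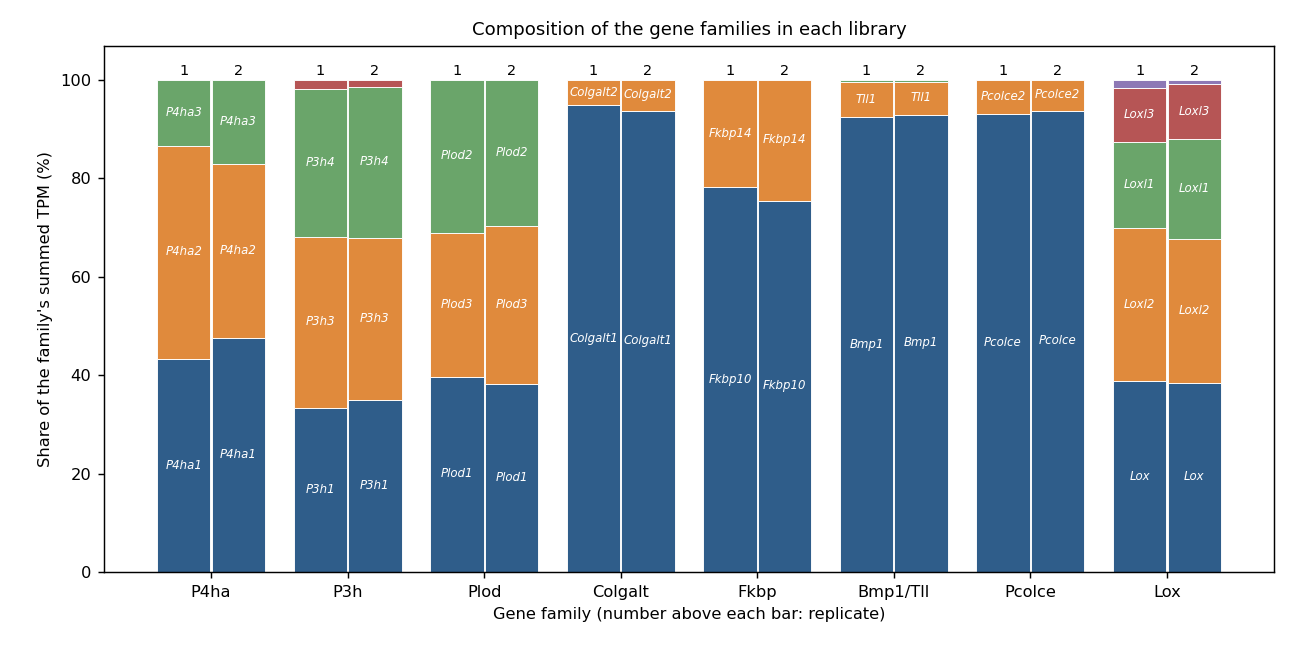
Share of each gene in the summed TPM of its family, in percent, with replicate 1 on the left and replicate 2 on the right of each pair of bars. The unlabelled segments at the top are P3h2, Tll2 and Loxl4; Colgalt, Bmp1/Tll and Pcolce were each held to over 90% by 1 gene, while P3h and Plod were spread over 3.

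Export factors were present at middling levels. The inner COPII coat genes Sec23a and Sec24d, whose human counterparts are mutated in disorders with skull and facial defects, were at 62.4 and 67.6 TPM and at 37.8 and 41.6 TPM in replicates 1 and 2. Sec24d stood at 0.605 and 0.615 times Sec23a. Creb3l1 (OASIS), an ER stress transducer and transcription factor known for driving Col1a1 in mouse osteoblasts, was at 10.0 and 8.89 TPM.

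Mia3 (TANGO1), the ER exit site receptor that loads bulky procollagen into COPII carriers, was at 79.8 and 86.7 TPM, but this level is uncertain. Of its 6 deposited models, 4 are coding models that the annotation marks as incomplete, and they are short. The single coding model not so marked, Mia3-202 with 2343 coding bases, was at 8.8 TPM in replicate 1 and 12.9 TPM in replicate 2. That was 11.0% and 14.9% of the gene. Whether Mia3-202 encodes the full-length receptor was not tested. Mia3-204, an incomplete model of 829 bases, led with 36.6% ± 0.658, followed by Mia3-201 at 21.5% ± 2.05. In expected counts, which are not divided by length, Mia3 ranked 20 of 32 against 7 by TPM, and Mia3-202 then held 29.0% and 37.1%.

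Removal of the C-terminal propeptide, the step that lets fibrils assemble, is done by the Bmp1 proteinases and sped up by Pcolce. Bmp1 was at 47.5 TPM in replicate 1 and 52.95 TPM in replicate 2, its relative Tll1 at 3.65 and 3.79 TPM, and Tll2 at 0.23 TPM in each, from 16 and 12 counts. Bmp1 alone made up 92.7% ± 0.347 of the family, and Tll2, at percentile 28.6 of protein-coding genes, was the only gene of the 32 below 1 TPM. Bmp1 had 1 transcript row, so its short form and the longer tolloid form could not be separated. The enhancer Pcolce was at 98.9 and 91.9 TPM, and Pcolce2 at 7.38 and 6.17 TPM, so Pcolce gave 93.4% ± 0.458 of the pair. For Pcolce2 the leading model differed between libraries: the non-coding Pcolce2-202 held 59.8% of the TPM in replicate 1 and 40.8% in replicate 2. Those shares rest on 49 and 21 counts, while the coding Pcolce2-201 had 272 and 256 counts.

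Lysyl oxidases, the copper enzymes that act on collagen and elastin outside the cell, were led by Lox. It was at 51.2 TPM in replicate 1 and 60.3 TPM in replicate 2, followed by Loxl2 at 41.2 and 45.96 TPM, Loxl1 at 22.9 and 31.8 TPM, and Loxl3 at 14.5 and 17.6 TPM. Loxl4 was far lower at 2.21 and 1.3 TPM. The order was the same in both libraries, and all 10 pairs in the family were apart by their credibility intervals. Shares of the family total were 38.6% ± 0.215 for Lox, 30.3% ± 1.37 for Loxl2, 18.8% ± 2.04 for Loxl1, known for its part in elastic fibres, 11.1% ± 0.147 for Loxl3, which mouse knockouts tie to palate closure, and 1.251% ± 0.597 for Loxl4. Lox-202 carried 79.3% ± 3.67 and Lox-201 20.7% ± 3.67 of the Lox TPM.

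In all, 34 gene pairs were compared, 28 within families and 6 between partners, and 28 were apart, meaning that the deposited intervals did not overlap in either library and the same gene was higher in both. Each interval belongs to a single library and does not cover the spread between libraries. The share of all gene pairs that are apart is not given here, so 28 of 34 is not read as a trait of these genes. The 6 that were not apart were P4ha1 with P4ha2, P3h1 with P3h3, P3h1 with P3h4, P3h3 with P3h4, Plod3 with Plod2, and Colgalt1 with Plod3.

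Transcript use was mostly stable. Of the 32 genes 7 had 1 transcript row, and of the 21 with several rows and 5 TPM or more in both libraries 19 kept the leading model, against 91.7% of 7955 such genes; the share of the members is near that background. The exceptions by TPM were P4ha3 and Pcolce2. A single model held over 80% of the TPM in P4hb-201 (88.3% ± 0.570), P3h1-204 (92.4% ± 0.339), Crtap-201 (86.6% ± 6.37), Plod1-201 (93.6% ± 1.79), Fkbp10-201 (85.1% ± 1.66), Fkbp14-201 (95.3% ± 0.613), Sec23a-201 (95.2% ± 0.522), Loxl2-202 (85.4% ± 0.337) and P3h4-201 (100%). Pcolce-201 held 71.5% ± 2.88 and Loxl3-201 74.0% ± 5.44 of the TPM, with non-coding models at 26.0% ± 5.44 of Loxl3. In expected counts Pcolce-201 held 82.7% in replicate 1 and 79.6% in replicate 2, and Loxl3-201 held 95.1% and 96.8%. The non-coding share of the Loxl3 TPM thus rests on few reads.

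**Figure D3:**
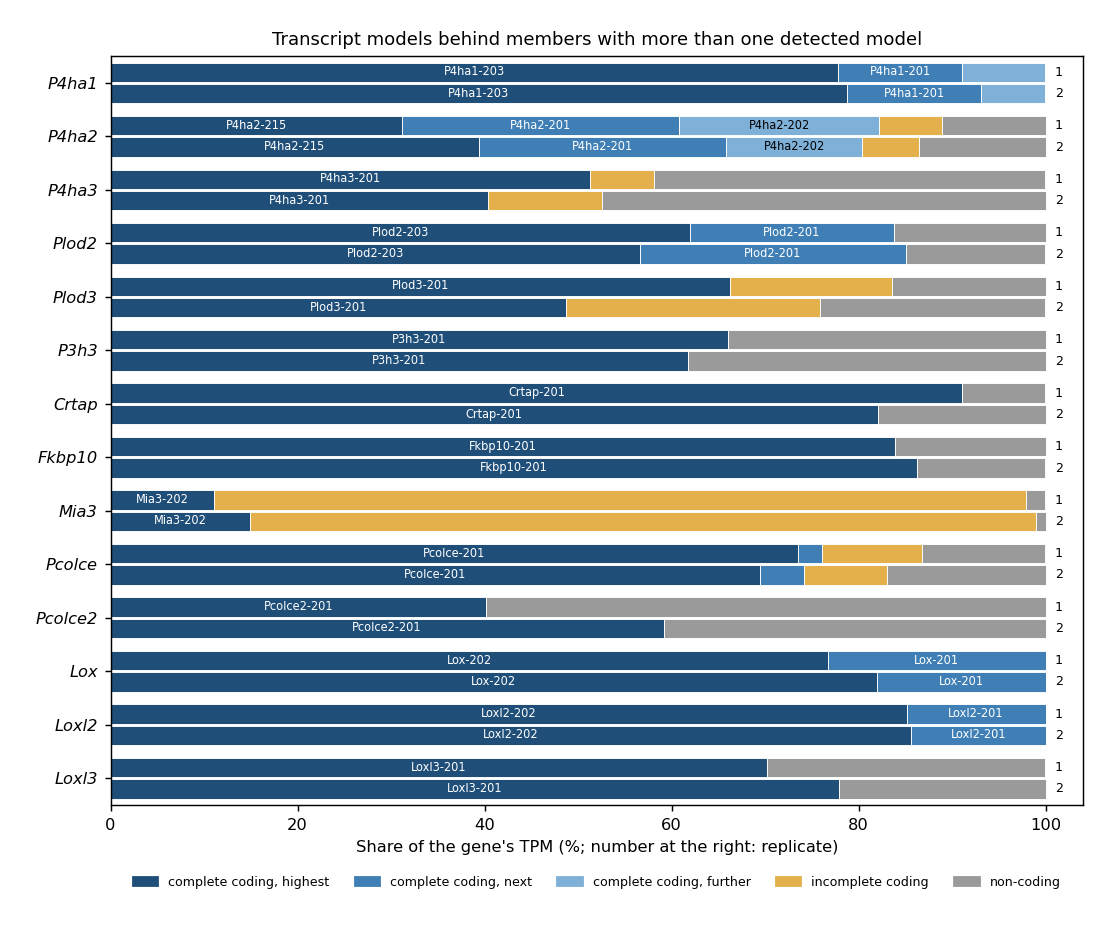
Share of each gene's TPM by transcript model for 14 genes with more than 1 detected model, with replicate 1 as the upper and replicate 2 as the lower bar. Blue bars are complete coding models, yellow incomplete coding models and grey non-coding models; P4ha1, Lox and Loxl2 are wholly blue, Mia3 mostly yellow, and P4ha3, P3h3 and Pcolce2 carry wide grey parts.

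The libraries were then compared gene by gene as replicate 2 over replicate 1, from expected counts scaled by TMM (an edgeR normalization) with a prior count of 1. Each ratio has an exact 95% counting interval, which covers counting error only and takes reads as independent molecules. Of the 31 genes with a mean count of 100 or more, 0 were past 1.5-fold higher in replicate 2, against 2.40% of 12730 such gene rows, and 1, Loxl4, was past 1.5-fold lower, against 0.786%. Past a ratio of 5 to 4 in either direction there were 4 genes (Loxl1, P4ha3, P3h2 and Loxl4), against 10.6%. The median size of the difference was 0.09 on the log2 scale for the 32 genes and 0.11 for the gene rows with that count.

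Loxl4 (ENSMUSG00000025185.10, GRCm38 chromosome 19, 42593982 to 42612813) had 75 counts in replicate 2 and 169 in replicate 1, a ratio of 0.546 (interval 0.408 to 0.717). P3h2 had 98 and 166 counts, a ratio of 0.724 (0.557 to 0.933). Both are the lowest members of their families, and their deposited intervals overlapped between the libraries. Loxl1 had 1659 counts in replicate 2 and 1571 in the deeper replicate 1, a ratio of 1.29 (1.21 to 1.39). P4ha3 followed with 1.29 (1.16 to 1.43), Loxl3 with 1.23 (1.12 to 1.35), P4ha1 with 1.15 (1.10 to 1.21) and Lox with 1.11 (1.07 to 1.16), and the intervals of Plod2, P3h1 and Serpinh1 also lay above 1. The genes with intervals below 1 also included Creb3l1 at 0.826 (0.720 to 0.946), P4ha2 at 0.841 (0.789 to 0.897), Pcolce at 0.850 (0.803 to 0.901), Fkbp10 at 0.912 (0.872 to 0.952) and Colgalt1 at 0.924 (0.878 to 0.972). Of the 31 genes with a mean count of 100 or more, 8 intervals lay above 1, against 16.9% of such gene rows, and 7 lay below 1, against 27.3%. With this scaling P4ha1 lay above 1 and P4ha2 below 1; scaled to spike-in totals both were higher in replicate 2 (log2 ratios of 0.76 and 0.31).

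Skeletal markers and collagen chains had these ratios on the same scale. Of the chondrocyte genes 0 of 5 were past 1.5-fold, with Sox9 at 1.37, against 2.40% higher and 0.786% lower of the 12730 gene rows. Of the 4 osteoblast genes with a mean count of 100 or more 1 was past it, Ibsp at 0.586. All 5 chondrocyte genes had ratios above 1 and all 5 osteoblast genes below 1, with Bglap from only 5 and 3 counts. The cartilage chain Col2a1 was at 1.19, and Col1a1, Col3a1 and Col1a2 were at 0.801, 0.824 and 0.873, none of them past 1.5-fold. The part of these markers, and of the liver, heart and Hox signals given above, in the differences of Loxl1, Loxl4, P4ha3, Creb3l1 and the other genes was not tested.

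The direction of 11 differences depended on the scaling between TMM and spike-in totals. With TMM, 20 genes were higher in replicate 2 and 12 lower. In deposited TPM, 23 were higher, 8 lower and 1 equal. The median log2 ratio of the gene rows with a mean count of 100 or more moved with the scaling too. It was -0.03 with TMM, 0.06 in deposited TPM and 0.53 with spike-in totals. The share of all gene rows in each direction is not given here, so these counts are not read as a trait of the 32 genes. Scaling to spike-in totals shifts the median of the gene rows with a mean count of 100 or more by 0.56 on the log2 scale relative to TMM; 31 of the 32 were then higher and only Loxl4 was lower, with a log2 ratio of -0.32. P3h2, Creb3l1, P4ha2, Pcolce, Fkbp10 and Colgalt1 had intervals below 1 under TMM. With spike-in totals these genes turned, to log2 ratios of 0.09, 0.28, 0.31, 0.33, 0.426 and 0.445.

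**Figure D4:**
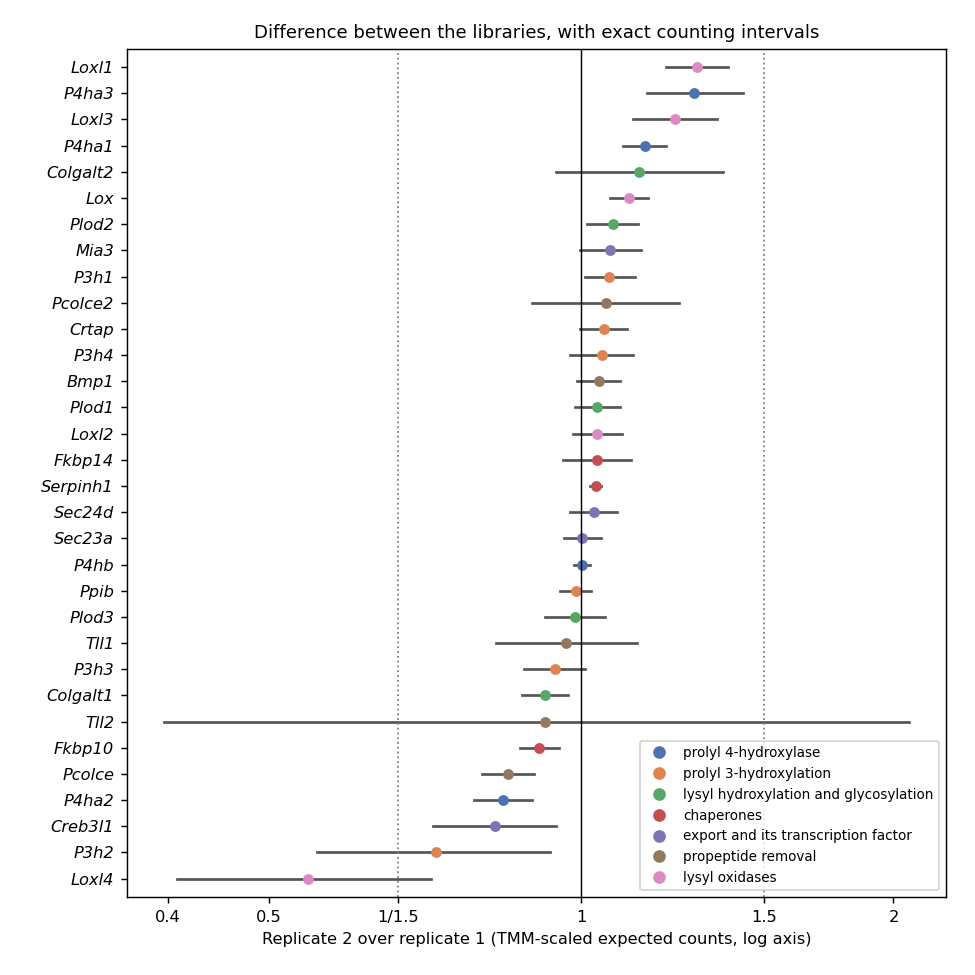
Ratio of replicate 2 to replicate 1 for each gene on a log axis, from TMM-scaled expected counts, coloured by role, with exact 95% counting intervals as lines and dotted lines at 1.5-fold. Loxl4 is the only gene past a dotted line, and the wide interval of Tll2 (0.396 to 2.07) comes from 16 and 12 counts.

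Reads of overlapping genes could not be assigned with certainty, because the sources used here do not say whether the libraries keep strand. Exons of 12 of the 32 genes overlap those of another gene on the opposite strand. Most partners were low: Ppib shares 825 exonic bases with Snx22, which had 219 counts in replicate 1 and 186 in replicate 2 against 7208 and 5819 for Ppib. Partners with counts of similar size were Htra2 (1570 and 1233) for Loxl3 (907 and 913, 535 shared bases), Znhit1 (1311 and 982) for Plod3 (1938 and 1562, 529 bases), Nt5c3b (3165 and 2321) for Fkbp10 (4734 and 3526, 193 bases) and Plekha8 (1270 and 1032) for Fkbp14 (1505 and 1274, 208 bases). P3h2 shares 1055 exonic bases with Gm4524, which had 47 and 41 counts against 166 and 98.

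The other genes of collagen production give the setting. Fibrillar collagen chains, the main clients of the machinery, were at 1 TPM or more for 10 of 11 genes, with a median of 82.4 TPM. They summed to 3263 and 3135 TPM in replicates 1 and 2, against 3204 and 3492 TPM for the 32 genes themselves. They were led by Col3a1, Col1a1 and Col1a2 (676 and 636 TPM). Basement membrane chains were at 1 TPM or more for 3 of 6, with Col4a1 at 81.2 and 83.1 TPM, Col4a2 at 44.2 and 47.7 TPM and Col4a5 at 6.54 and 7.25 TPM. The procollagen N-proteinases, which remove the other propeptide, were all 3 detected but low, with Adamts2 at 9.02 and 10.6 TPM, Adamts3 at 2.99 and 3.93 TPM and Adamts14 at 2.21 and 1.69 TPM. These levels lie below those of Bmp1 in both libraries.

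Other ER folding enzymes were all detected (12 of 12, median 252 TPM), led by the lectin chaperone Calr at 719 and 776 TPM, the BiP gene Hspa5 at 564 and 666 TPM and the disulfide isomerase Pdia3 at 508 and 497 TPM. In both libraries Serpinh1 exceeded each of them, although they serve secreted proteins of every kind. Of the COPII coat and its partners 14 of 15 were detected (median 48.9 TPM), led by Sec13 at 220.2 and 218 TPM, Sar1a at 187 and 191 TPM and Sec31a at 154 and 170.3 TPM. Regulators of the secretory pathway passed it for 9 of 10 (median 20.0 TPM), led by Xbp1 at 106 and 116 TPM, Mbtps1 at 91.8 and 102 TPM and Atf4 at 91.4 and 86.95 TPM. Of the 10 genes listed for the supply of proline, ascorbate and copper, 9 passed 1 TPM (median of the list 28.3 TPM). That list also holds Tmem38b, an ER ion channel gene that supplies none of these. Among those that passed were the copper chaperone Atox1 at 333 and 297 TPM and Aldh18a1, an enzyme of proline synthesis, at 55.5 and 58.1 TPM. In these 7 lists 0 genes with a mean count of 100 or more were past 1.5-fold between the libraries. Of all 12730 such gene rows 2.40% were past it higher and 0.786% lower, so 0 is near the background. Some genes of the lists with fewer counts were past it, with ratios from 0.586 to 3.17.

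**Figure D5:**
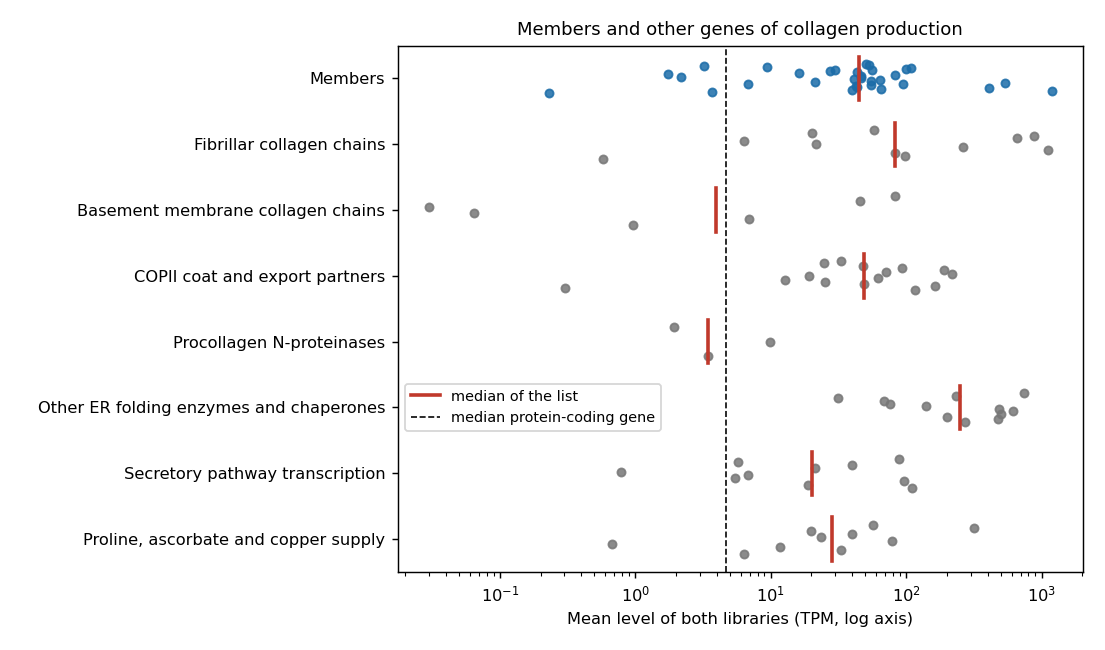
Mean TPM of both libraries for each gene on a log axis, with the 32 genes in blue, other lists of collagen production in grey, list medians as red bars and the median protein-coding gene as a dashed line. The 32 genes have a median of 44.9 TPM, near the COPII list at 48.9 TPM, below the fibrillar chains at 82.4 TPM and the general ER folding genes at 252 TPM, and above the basement membrane chains at 3.93 TPM.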

How the data were processed

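Both libraries were made from 10 ng of RNA over 200 nt, per the labels. The submitters' notes name mm10 and GENCODE M4; aligner, quantifier and strandedness are not given in the sources used here. The deposited expected counts and posterior mean counts are the authors' estimated reads per feature, per the file headers. The deposited TPM values sum to 1000000 over all rows, spike-ins included, and the deposited FPKM values are proportional to them. The deposited TPM interval bounds were read as a signal in TPM, and their level is not stated per the file headers.

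Of 69691 table rows, 43346 were gene rows, of which 42462 were named by GENCODE M21 on GRCm38 and 884 were not matched. Rows with a number only (26248) and spike-ins (96, holding 6.27% of expected counts in replicate 1 and 4.45% in replicate 2) stayed out of library sizes. Total expected counts were 30451502 and 23777465, and 3 counts correspond to 0.105 and 0.132 CPM (per 1000000 gene-row counts). Detection was 1 TPM or more in both libraries. Counts were rounded and scaled with TMM in edgeR 4.0.16 (DESeq2 1.42.0 size factors as an alternative, R 4.3.3). Clopper-Pearson 95% intervals came from scipy 1.17.1 in Python 3.11.15. The scaling was also run on simulated counts. The outcome of that run is not given here, and no result above rests on it. Exons were read from GENCODE M21 transcripts. All 32 genes are named, with the 3 highest of each of the 7 other lists of the pathway and, for transcripts, the leading model at 5 TPM or more and the next at 20% or more. A gene that this rule takes is not reported here. The genes and lists were chosen with earlier results of these data known. Genes named beyond that rule (liver, heart, Hox, skeletal and overlapping genes, Tmem38b, and further transcripts) were named after their values were seen.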

Additional observations from a re-analysis of the deposited data

How the results depend on the processing

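The median level of the 32 genes was 44.93 TPM, 30.82 in FPKM and 50.76 when TPM was rescaled to gene rows; these change by the units' own construction. Past 1.5-fold between libraries was 1 gene. Spike-in totals gave 18, a ratio of 5 to 4 gave 4 (against 10.6% of gene rows with a mean count of 100 or more) and a 2-fold rule 0. With spike-in totals the median log2 ratio of those gene rows was itself 0.53. Their share past the fold is not given for the spike-in and 2-fold settings, so the 18 are not read as a trait of the 32 genes. The cause of the spike-in difference was not tested. With 1 library at a time, detection stayed at 31 of 32, the median was 42.42 to 48.13 TPM, and 29 to 30 of 34 pairs were apart. Detection counts were 27 at 5 TPM, 25 at 10 TPM and 30 in FPKM, and pairs more than 2-fold apart were 21. Shares of all protein-coding genes at these detection settings are not given here. The leading transcript was kept in 19 of 21 genes also by counts, where P4ha2 and Mia3 were the exceptions, in 22 of 24 at 1 TPM, and in 18 of 18 with coding models only. Ranks moved by 3 or more places for 11 genes without length correction (Mia3 most) and for 4 with coding models only, an alternative that was chosen after seeing the data for levels, ranks and pairs. No paired analysis was possible because both libraries belong to 1 group. Depth limits Tll2, Loxl4 and P3h2.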
